A study of Homo sapiens with 11 samples.

Results

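The comparison described here set SK-MEL-103 cells treated with tozasertib against the same cells given only the solvent DMSO. It took 7 of the 11 samples of the series, 3 labelled tozasertib (replicates 1, 2 and 4) and 4 labelled DMSO, chosen by their labels alone. Another 4 samples, treated with etoposide, were used as a second reference. SK-MEL-103, written SK-MEL103 in the labels, is an established human melanoma line, so every value belongs to 1 line. Cells received DMSO, 0.5 µM tozasertib or 0.25 µM etoposide for 6 days, with fresh medium and drug on day 3, and poly(A) RNA was sequenced. The study used both drugs to bring the cells into senescence. The third replicate of tozasertib was not analysed here. Whether replicates came from separate cultures is not stated in the sources used. The p-values come from a fit to all 11 samples, etoposide included. They reflect the variation between replicates within the groups, which could be of technical origin.

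Tozasertib inhibits the Aurora kinases, which build the spindle, attach chromosomes to it and allow the cell to divide. Cells that cannot finish mitosis often go on with several genomes in 1 nucleus and then stop cycling. Senescence, a lasting arrest, is known for large, flat cells, many lysosomes, an altered nucleus and the secretion of matrix proteins, proteases and cytokines. Etoposide reaches a similar arrest through DNA breaks left by topoisomerase II.

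The DMSO samples held 28863009 to 32957818 reads and the tozasertib samples 27882689 to 56534763 reads. The level of a gene is given in CPM, its count relative to all counts of the sample after TMM scaling, which evens out differences in library composition. Mitochondrial transcripts took 2.08% to 3.74% of the reads in DMSO samples and 3.79% to 4.77% in tozasertib samples. A list of 15 melanocyte and melanoma markers summed to 1309 to 1335 CPM with DMSO and 1441 to 1470 CPM with tozasertib, almost all of it from SOX10, MCAM, PRAME and MIA. Of these, MCAM had a higher mean with tozasertib (456 CPM with DMSO and 861 CPM with tozasertib). The means of SOX10 (514 and 379 CPM), PRAME (210 and 143 CPM) and MIA (96.55 and 16.3 CPM) were lower. Among these markers MLANA had no read, and TYR and TYRP1 had 2 and 4 reads over all 7 samples. The DMSO samples were not alike in short transcripts. Summed ribosomal protein mRNAs, all short, took 88036 CPM in DMSO replicate 1 and 59094 to 65404 CPM in the other 3, so values without that sample are given where they matter.

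Most of the transcriptome moved. Of 17039 genes with enough reads to test, 5097 were higher with tozasertib (29.9%) and 5008 lower (29.4%), together 59.3%, at an adjusted p under 0.05 in edgeR's quasi-likelihood test. "Rose" and "fell" refer to this threshold from here on, and every size is a log2 change of tozasertib against DMSO with its standard error where given. The tozasertib and DMSO samples did not overlap at all in 4795 of the higher and 4701 of the lower genes. These genes were called on the same values, and the share over all tested genes is not given here. The large changes leaned upward, with 2081 genes higher and 1237 lower by 2-fold or more, and 317 higher and 85 lower by 8-fold or more. The median over all tested genes was 0.02. In terms of RNA, the genes that rose took 18.9% to 21.1% of the reads of a DMSO sample and 36.4% to 36.6% of those of a tozasertib sample. The genes that fell went from 52.2% to 55.99% down to 35.1% to 35.9%.

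**Figure D1:**
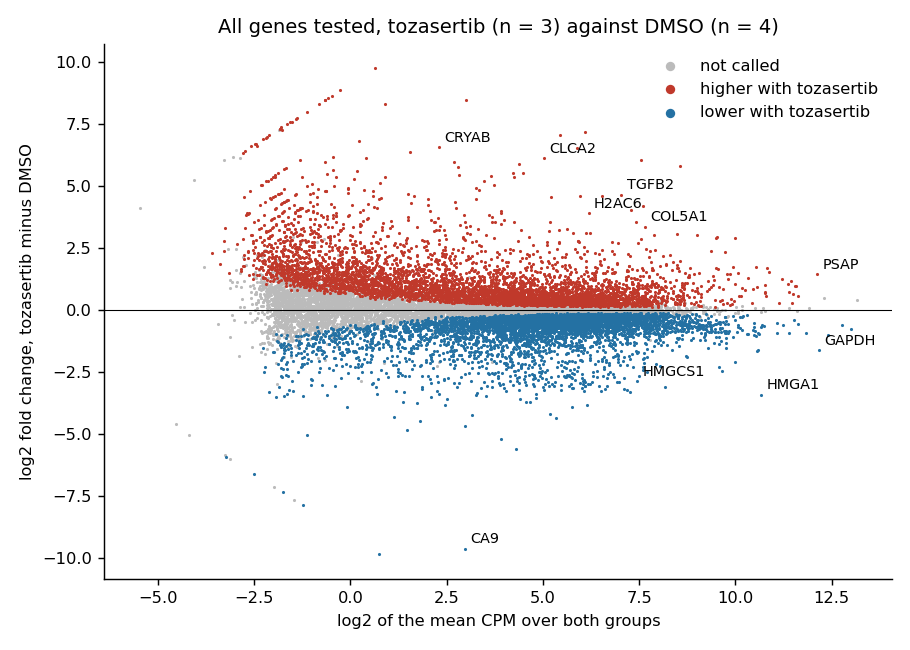
Each point is a tested gene, placed by the log2 of its mean CPM over both groups and its log2 fold change of tozasertib against DMSO. Red points are genes called higher with tozasertib, blue points genes called lower, and grey points genes not called; 317 genes were higher and 85 lower by 8-fold or more, and the slanted rows at the far left are genes with no or few reads in 1 group.

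Abundant genes were found on both sides. PSAP, the precursor of the saposins that help lysosomal enzymes degrade sphingolipids, took 2642, 2490.5, 2214 and 2177 CPM in the 4 DMSO samples and 6376, 6655 and 6434 CPM in the 3 tozasertib samples. Every tozasertib sample was above every DMSO sample, by 1.45 ± 0.0711 (SE; edgeR adjusted p = 2.19e-09). Other large gains were those of TGFBI, a secreted adhesion protein, from 2066 ± 38.4 to 4024 ± 119 CPM (SD, n = 4 and 3), and MMP2, a protease that cuts basement membrane collagen, from 851 ± 10.2 to 2733 ± 101 CPM. The largest losses were in housekeeping genes of growth: the glycolytic enzyme GAPDH went from 6929 ± 1028 to 2235 ± 29.1 CPM, the translation factor EEF1A1 from 10228 ± 799 to 6017 ± 453, and cytoplasmic actin ACTB from 7293 ± 733 to 3590.1 ± 89.5. HMGA1, an abundant protein that bends DNA in proliferating and transformed cells, had 3017, 2784, 3155 and 2859 CPM with DMSO and 276, 288 and 264 CPM with tozasertib. No sample of one group came near the other for this gene (-3.42 ± 0.0751, edgeR adjusted p = 4.93e-12).

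Interferon, mitosis and p53 genes are given first and briefly. All 50 of 50 tested interferon-induced genes rose, with a median of 2.94. All 74 of 74 genes of mitosis fell, with a median of -2.72, as did 70 of 71 genes of DNA replication (-1.97). The exception was CCNE1, the cyclin that starts S phase, at 0.44, a call lost without tozasertib replicate 4 (edgeR adjusted p = 0.0541). Among p53 targets 43 of 52 rose and 2 fell. Those 2 were APAF1 (-0.66), the scaffold of the apoptosome, and PMAIP1 (-0.55), the death-promoting protein NOXA. The mRNAs of the targeted kinases were themselves lower, AURKA by -2.22 and AURKB by -3.25, while AURKC, a germline paralogue, had 0.69 and did not pass the test (edgeR adjusted p = 0.05, and 0.0492 and 0.0488 without DMSO replicate 1 or 2, and 0.027 with library size alone).

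Promoters of some of the programmes described below are shown for reference, since their genes moved together. They are RefSeq sequences of GRCh38.p14, from 250 bases before to 50 after the annotated start, written 5′ to 3′ along the gene. Capitals mark only the motifs named here for that gene, found by exact match on either strand. Other matches are left unmarked, such as TATAAA in HMGCS1 and CCAAT in CA9. A match is a description of the letters and not a measured binding site. GAA, a lysosomal enzyme gene that rose, has 2 copies of the TCACGTGA motif of lysosomal genes. LDHA and CA9, which fell, have the ACGTG core of hypoxia response elements, which lies within TCACGTGA and is read on both strands wherever CACGTG occurs. HMGCS1, a cholesterol gene that fell, has 2 CCAAT boxes on the opposite strand (ATTGG), and H2AC6, a histone gene that rose, has 3 CCAAT boxes and 1 TATAAA box. The windows are chr17:80101331-80101630 (plus strand), chr11:18394313-18394612 (plus), chr9:35673678-35673977 (plus), chr5:43313363-43313662 (minus) and chr6:26123922-26124221 (plus).
GAA: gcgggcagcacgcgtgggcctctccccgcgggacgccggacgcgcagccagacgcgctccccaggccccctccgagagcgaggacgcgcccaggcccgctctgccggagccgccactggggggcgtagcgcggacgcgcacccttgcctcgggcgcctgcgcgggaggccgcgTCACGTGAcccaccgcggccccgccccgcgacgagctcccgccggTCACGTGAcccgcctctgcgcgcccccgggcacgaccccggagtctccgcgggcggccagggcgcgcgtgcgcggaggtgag
LDHA: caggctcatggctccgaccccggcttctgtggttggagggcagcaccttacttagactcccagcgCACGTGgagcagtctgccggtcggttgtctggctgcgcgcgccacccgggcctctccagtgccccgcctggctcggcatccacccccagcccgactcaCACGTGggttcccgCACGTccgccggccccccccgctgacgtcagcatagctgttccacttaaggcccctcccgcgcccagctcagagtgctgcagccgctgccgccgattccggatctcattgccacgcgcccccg
CA9: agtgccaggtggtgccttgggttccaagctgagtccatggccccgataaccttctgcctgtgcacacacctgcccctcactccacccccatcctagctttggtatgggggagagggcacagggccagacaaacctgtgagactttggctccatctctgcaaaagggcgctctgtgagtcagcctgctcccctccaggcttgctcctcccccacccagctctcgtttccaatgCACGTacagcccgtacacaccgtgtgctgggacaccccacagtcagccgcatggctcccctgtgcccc
HMGCS1: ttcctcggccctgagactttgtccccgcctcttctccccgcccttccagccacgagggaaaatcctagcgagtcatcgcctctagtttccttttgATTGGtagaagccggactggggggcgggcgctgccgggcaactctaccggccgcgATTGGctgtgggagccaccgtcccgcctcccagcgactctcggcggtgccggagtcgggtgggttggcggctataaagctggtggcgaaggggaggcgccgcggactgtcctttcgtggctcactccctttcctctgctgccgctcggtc
H2AC6: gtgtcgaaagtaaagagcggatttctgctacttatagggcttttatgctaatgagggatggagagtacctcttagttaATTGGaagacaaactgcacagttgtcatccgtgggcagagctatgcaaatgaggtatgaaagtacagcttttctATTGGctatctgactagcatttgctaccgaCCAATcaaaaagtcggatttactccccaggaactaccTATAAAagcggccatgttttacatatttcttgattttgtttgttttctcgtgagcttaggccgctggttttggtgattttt

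Among the 27195 promoters of the RefSeq table, TCACGTGA occurred in 1.04%, ACGTG in 21.6%, CCAAT in 35.7% and TATAAA in 12%. Among the 11784 promoters of tested genes the shares were 1.82%, 26.4%, 37% and 6.16%. In the lists, TCACGTGA occurred in 6 of 45 lysosomal promoters (13.3%), ACGTG in 20 of 43 promoters of glycolysis and hypoxia genes (46.5%), CCAAT in 16 of 21 cholesterol promoters (76.2%), and TATAAA in 19 of 26 promoters of clustered histone genes (73.1%). CCAAT was also in 80.8% of clustered histone, 71% of mitosis and 60.3% of DNA replication promoters. In the interferon, lysosomal and glycolysis lists its share was 32.5% to 39.5%. ACGTG was in 33.9% of mitosis and 31.1% of lysosomal promoters, and in 20% to 27.6% in the other lists examined. TCACGTGA was in 5.17% of DNA replication, 4.76% of cholesterol and 3.23% of mitosis promoters. It was in 0% of interferon, glycolysis and clustered histone promoters. The sterol regulatory element TCACNCCAC, in this spelling, was in 1 of 21 cholesterol promoters (4.76%), against 1.15% of all and 1.1% of tested genes.

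Genes of cholesterol synthesis and uptake fell together. Of 28 tested members 25 were lower and 1 was higher, with a median of -2.01, and their summed level went from 3614 to 4081 CPM in the DMSO samples to 842 to 871 CPM in the tozasertib samples. HMGCS1, which makes the precursor of mevalonate at the head of the pathway, had 292, 285, 301 and 354 CPM with DMSO and 42.1, 42.4 and 41.9 CPM with tozasertib. The 3 tozasertib samples lay within 1 CPM of each other and far below the lowest DMSO sample (-2.87 ± 0.0775, edgeR adjusted p = 2.06e-11). ACAT2, which joins the first acetyl units, changed by -3.83, FDFT1, the first enzyme committed to sterols, by -2.51, and LSS, which closes the sterol rings, by -2.0. The higher gene was MYLIP (1.5), a ubiquitin ligase.

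The fall reached the neighbouring lipid pathways in part. Of 21 genes of fatty acid synthesis and desaturation, 12 fell and 5 rose (median -0.73). SCD, which makes monounsaturated fatty acids, had 1157, 1259.8, 1286 and 1403 CPM with DMSO and 264, 259 and 255 CPM with tozasertib, with no overlap (-2.3 ± 0.0704, edgeR adjusted p = 3.96e-11). The front-end desaturases FADS1 and FADS2, which make polyunsaturated fatty acids, changed by -2.42 and -1.92, and ACSL3, which activates fatty acids, by -1.64. Members that rose were ACSL6 (2.42) and ACSL5 (0.80), other activating enzymes, FADS3 (0.41), SCD5 (0.21) and ME1 (0.24), which makes NADPH. The call of ME1 was lost in 5 of the 7 fits that left out 1 sample (tozasertib 1 or 4, DMSO 1, 2 or 3, edgeR adjusted p = 0.0692 to 0.151). It was also lost without a filter on low counts (edgeR adjusted p = 0.14), with only the samples of the 2 groups (0.0899) and with length-scaled counts (0.0994). SCD5 lost its call without a filter on low counts (edgeR adjusted p = 0.0548). In ether lipid synthesis 9 of 13 genes fell and none rose (median -0.34, while in length-scaled counts 5 of 13 fell with a median of -0.23), with PCYT2 at -0.98, FAR1 at -0.63 and the peroxisomal enzyme GNPAT at -0.57. Among triglyceride and lipid droplet genes 13 of 21 fell, led by the lipase MGLL (-2.39), and 1 rose. The gene that rose was PLIN4, a lipid droplet coat protein of fat cells, at 0.634 ± 0.262 CPM with DMSO and 7.83 ± 0.765 CPM with tozasertib (3.63 ± 0.243, edgeR adjusted p = 3.68e-08).

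Not all lipid genes followed. Cholesterol export and LXR target genes were split, 6 of 15 higher and 4 lower, with the phospholipid transfer protein PLTP at 1.5 and SREBF1, the factor that drives fatty acid synthesis, at -0.46. Sphingolipid and ganglioside genes were also split, 16 higher and 13 lower of 38. UGCG, which starts the glycosphingolipids, was at 1.69, and B4GALNT1, which makes the complex gangliosides, at -1.62. In fatty acid oxidation 9 of 34 rose and 12 fell. CPT1A, which admits fatty acids to mitochondria, changed by 2.08, while ACOX2, the peroxisomal oxidase of branched chains and bile acid precursors, was among the lowest of all genes at -4.69.

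Most genes of glycolysis and the hypoxia response fell. Of 48 tested members 38 fell and 4 rose (median -0.82), and the summed level went from 21184 to 26571 CPM to 11354 to 11656 CPM. CA9 (ENSG00000107159.14), a carbonic anhydrase of the cell surface whose mRNA depends on hypoxia-inducible factor, had 15.4, 20.1, 13.2 and 13.9 CPM in the DMSO samples. In the tozasertib samples it had 0, 0.035 and 0.0271 CPM, which is 2 reads in all against 1851 reads with DMSO, a ratio of 964 with an exact counting interval of 267 to 7963. LDHA, which turns pyruvate into lactate, had 1517, 1379, 1324 and 1207 CPM with DMSO and 248, 244 and 245 CPM with tozasertib. Every tozasertib value was below every DMSO value (-2.47 ± 0.0784, edgeR adjusted p = 5.48e-11). BNIP3, a mitophagy receptor induced at low oxygen, changed by -2.58, ENO1 by -1.64 and PKM, the pyruvate kinase, by -0.92. MIR210HG, the host transcript of the hypoxia-induced miR-210, was among the 8 lowest long non-coding RNAs at -3.83.

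The 4 members that rose were SLC2A1, STC2, PFKM and PFKFB2. SLC2A1, the glucose transporter GLUT1, had 262, 275, 266 and 269.7 CPM with DMSO and 504, 527 and 501 CPM with tozasertib, higher in every tozasertib sample (0.93 ± 0.0515, edgeR adjusted p = 6.42e-09). STC2, a secreted stanniocalcin, had 278, 322, 262 and 270.3 CPM with DMSO and 1412, 1458 and 1388 CPM with tozasertib. The groups were again far apart (2.33 ± 0.0689, edgeR adjusted p = 3.2e-11). PFKM and PFKFB2, which form and regulate fructose phosphates, had small increases of 0.50 and 0.51, the latter with no call in length-scaled counts (edgeR adjusted p = 0.0624).

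Mitochondrial genes of the nucleus were lower with small sizes. Of 36 genes of the citrate cycle and pyruvate entry 27 fell (median -0.37), with pyruvate carboxylase PC at -1.62 and IDH1 at -1.11. Of 74 nuclear genes of the respiratory chain 53 fell and 1, NDUFV3, rose (0.27). The call of NDUFV3 was lost without tozasertib replicate 2 (edgeR adjusted p = 0.0998), with length-scaled counts (0.169) and without a filter on low counts (0.0534). The median of the list was -0.45, and -0.29 without DMSO replicate 1. The sum of this list was 9242 CPM in DMSO replicate 1, 6209 to 6824 CPM in the other DMSO samples and 5123 to 5485 CPM with tozasertib. The mRNAs made inside mitochondria did not follow, with 5 of 13 higher and 3 lower (median 0.40). MT-ND5 was at 0.99 and MT-ND6 at -0.76, a call lost without tozasertib replicate 2 or 4 or DMSO replicate 1 (edgeR adjusted p = 0.0633 to 0.0957). The spread between DMSO samples was wide, with sums from 19241 CPM in replicate 4 to 38356 CPM in replicate 1, and the median was 0.21 without DMSO replicate 4. The number of lower members was 1 without DMSO replicate 1 or 2 or tozasertib replicate 2, 2 without tozasertib replicate 1 and 0 without tozasertib replicate 4.

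Synthesis of serine and one-carbon units fell with growth metabolism. Of 33 tested genes 16 were lower and 2 higher (median -0.28). PHGDH, the first enzyme of serine synthesis, had 143, 115, 118 and 107 CPM with DMSO and 14.3, 15.9 and 13.5 CPM with tozasertib. It was lower in all 3 tozasertib samples (-3.05 ± 0.119, edgeR adjusted p = 3.07e-10). SHMT1, which passes serine carbon to folate, changed by -2.31, while the mitochondrial folate enzyme ALDH1L2 (1.32) and AMT (1.1) of the glycine cleavage system were higher. The call of ALDH1L2 was lost with length-scaled counts (0.94, edgeR adjusted p = 0.213). In nucleotide synthesis and salvage 28 of 51 fell and 8 rose. The S phase subunit of ribonucleotide reductase RRM2 was at -3.32, and RRM2B, the p53-dependent subunit, at 1.56. Polyamine genes had 10 of 21 lower, among them AMD1 (-0.88), which makes decarboxylated S-adenosylmethionine, and 3 higher, among them SAT1 (1.25), which breaks polyamines down.

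**Figure D2:**
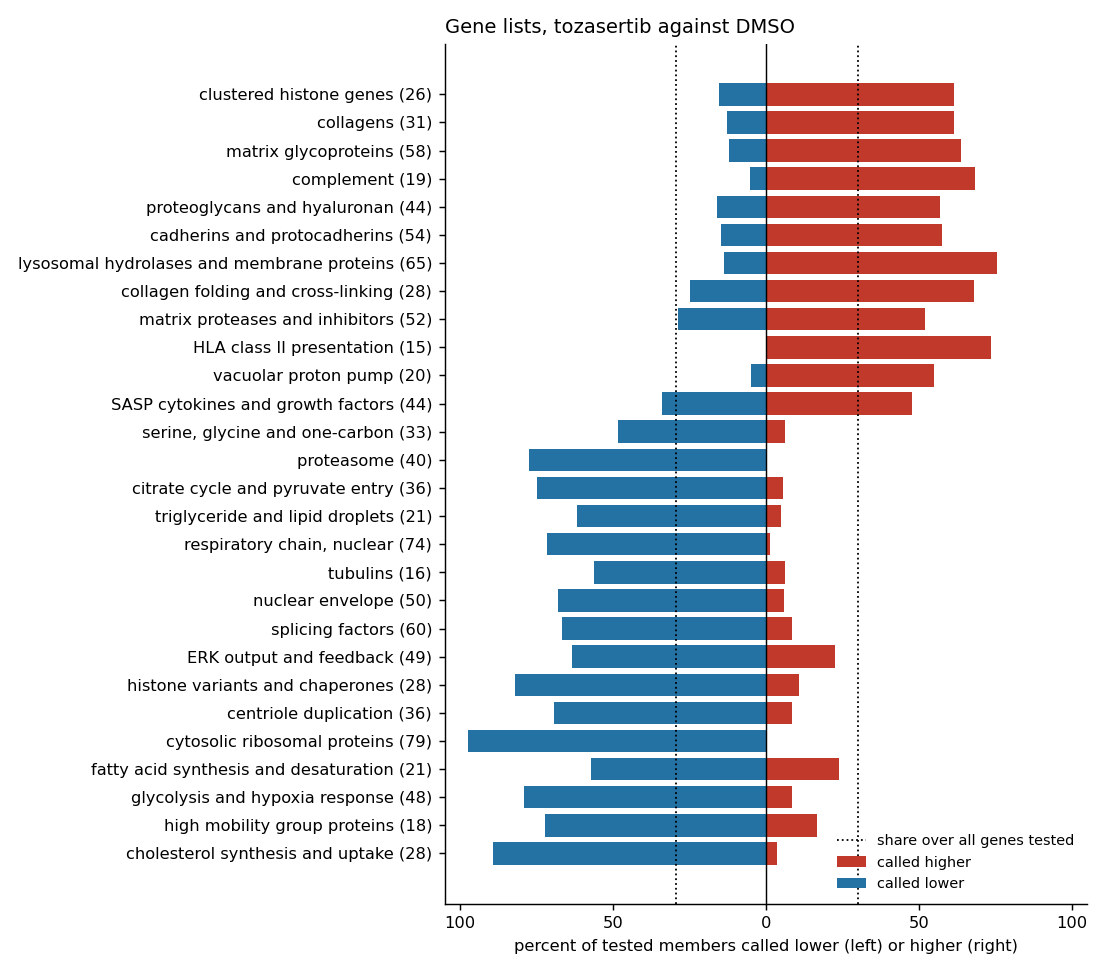
Bars give, for each gene list, the percent of its tested members called higher with tozasertib (red, to the right) or lower (blue, to the left), with the number of tested members in brackets. Dotted lines mark the shares over all tested genes, 29.9% and 29.4%; the bars of cholesterol, glycolysis and ribosomal protein genes pass the left line and those of lysosomal, collagen and clustered histone genes the right one.

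Ribosomal protein mRNAs were lower almost without exception. Of 79 tested, 77 fell and none rose, with a narrow spread around the median of -0.70. The sum went from 59094 to 88036 CPM with DMSO to 38963 to 44265 CPM with tozasertib, and the median was -0.54 without DMSO replicate 1, the sample high in short transcripts. RPL4, a large subunit protein, had 3296, 2752, 2829 and 2554 CPM with DMSO and 1418, 1489 and 1586 CPM with tozasertib. All 3 tozasertib samples were below the lowest DMSO sample (-0.93 ± 0.091, edgeR adjusted p = 1.48e-06), and ribosomal protein reads can be divided with processed pseudogenes. The factors that assemble ribosomes did not share the fall as a list. There 25 of 93 rose and 26 fell (median -0.01, and between -0.05 and 0.08 under the alternatives), with the methyltransferase fibrillarin, FBL, at -2.23 and NOL6 at 0.79.

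Other abundant machines of growing cells were also lower. Of 60 splicing factors 40 fell (median -0.50), among them HNRNPA1 (-1.64), an abundant RNA-binding protein that represses exons, and TRA2B (-0.95). The 5 that rose were the tissue-specific regulators MBNL2 (1.62), RBM24 (1.21), CELF2 (0.41) and QKI (0.21), and SRSF8 (0.29). The call of QKI was lost without tozasertib replicate 1, 2 or 4 or DMSO replicate 3 (edgeR adjusted p = 0.0708 to 0.131). It was also lost with only the samples of the 2 groups (edgeR adjusted p = 0.088), with a replicate block (0.0562) and with length-scaled counts (0.0503). SRSF8 lost its call with length-scaled counts (0.18, edgeR adjusted p = 0.149). Proteasome genes had 31 of 40 lower and none higher (median -0.32), with the ATPase subunit PSMC3 at -0.97. Without DMSO replicate 1 the list had 31 lower and 1 higher, with a median of -0.23. Over all alternatives the number lower ran from 24 to 35. Cytosolic chaperones were split more evenly, 20 of 45 lower and 13 higher. The chaperonin subunit TCP1 was at -0.72, while the small heat shock protein CRYAB, which binds unfolded proteins and is typical of lens and muscle, was the highest by fold of the 20 protein-coding genes named for their rise at 5 CPM or more outside the interferon, mitosis, replication and p53 lists. CRYAB had 0.0345, 0.0709, 0.0311 and 0.269 CPM with DMSO and 9.76, 7.38 and 12.1 CPM with tozasertib, so nearly all of its reads came from the tozasertib samples (6.55 ± 0.453, edgeR adjusted p = 5.19e-08).

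The chromatin genes moved in opposite directions by class. Clustered histone genes, whose mRNAs normally end in a stem-loop without a poly(A) tail and belong to S phase, were mostly higher: 16 of 26 rose and 4 fell (median 1.28), and the sum went from 50.9 to 71.3 to 335 to 338 CPM. H2AC6, a histone H2A gene, had 10.3, 7.73, 9.02 and 9.52 CPM with DMSO and 136, 136 and 138 CPM with tozasertib. The tozasertib values were close to each other and more than 10 times the highest DMSO value (3.9 ± 0.0783, edgeR adjusted p = 3.06e-12). H2BC5 changed by 3.47, H2BC21 by 2.93 and H2BC12 by 2.62, while H3C3 (-3.52), H2AC20 (-2.42), H1-4 (-1.68) and H2BC17 (-1.34) fell. Without a filter on low counts H2BC17 lost its call (edgeR adjusted p = 0.0757). These genes are near-identical copies that can share reads, and poly(A) selection keeps only the part of their mRNA that carries a tail.

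Histone variants, their chaperones and the high mobility group proteins were lower. Of 28 variants and chaperones 23 fell (median -0.52), with H2AX, the variant phosphorylated at DNA breaks, at -2.5 and H2AZ2 at -1.41, and the remodeller ATRX (0.42), UBN2 (0.52) and NAP1L3 (0.51) rose. Without tozasertib replicate 1 the calls of ATRX and UBN2 were lost (edgeR adjusted p = 0.0583 and 0.106). UBN2 also lost its call with a replicate block (edgeR adjusted p = 0.0567). Of 18 high mobility group genes 13 fell (median -0.86), and their sum went from 5087 to 5569 to 1634 to 1758 CPM. HMGB2, a protein of dividing cells whose loss is a known trait of senescence, changed by -3.18, HMGN2 by -1.79, HMGB1 by -1.61 and HMGA2 by -0.91. Nuclear envelope genes had 34 of 50 lower (median -0.47). LMNB1, lamin B1, was at -2.9, the lamina-associated TMPO at -2.74 and the lamin B receptor LBR at -2.07, while SYNE4 (2.02) and SYNE1 (1.31), which tie the nucleus to the cytoskeleton, and TMEM43 (0.47) rose. SYNE4 was at 1.23 and lost its call with length-scaled counts (edgeR adjusted p = 0.0845). Among polycomb, DNA methylation and histone-modifying enzymes 52 of 99 fell and 14 rose, with the H3K27 methyltransferase EZH2 at -2.4 and the deacetylase HDAC9 at 1.78. Without tozasertib replicate 1 or 4 the higher members of this list numbered 9.

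Genes of centrioles and tubulins were mostly lower. Of 36 genes of centriole duplication 25 were lower (median -0.58), with STIL, which starts a new centriole, at -1.79, while CEP250 (0.96), which holds centrioles together, CEP68 (0.47) and CEP120 (0.30) were higher. With length-scaled counts CEP120 was at 0.06 and lost its call (edgeR adjusted p = 0.593). Of 16 tubulins 9 fell, led by TUBA1B (-2.1) and TUBB4B (-1.84), and TUBG2 rose (0.41, a call lost without tozasertib replicate 1 or 2 or DMSO replicate 3, edgeR adjusted p = 0.068 to 0.147). Actin, myosin and SRF target genes were divided, with 22 of 59 higher and 23 lower. Smooth muscle actin ACTA2 (2.76) and tropomyosin TPM1 (1.59) were up, and the cytoplasmic actins ACTB (-1.02) and ACTG1 (-0.92) were down, and these 3 actins have closely similar coding sequences.

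Lysosomal genes rose as a group. Of 65 hydrolases and membrane proteins 49 were higher and 9 lower (median 0.57), and the sum rose from 8567 to 9705 CPM to 17312 to 17934 CPM. GAA, which degrades glycogen in lysosomes, had 57.5, 52, 48.1 and 49.4 CPM with DMSO and 187, 195 and 196 CPM with tozasertib. LAMP2, a major protein of the lysosomal membrane, had 243, 269, 263 and 271 CPM with DMSO and 693, 728 and 694 CPM with tozasertib. Neither gene overlapped between the groups (GAA 1.89 ± 0.0707 and LAMP2 1.43 ± 0.0575, edgeR adjusted p = 2.22e-10 and 3.84e-10). CTSA, a protective carboxypeptidase, changed by 1.47. The cholesterol exporter NPC1 (-0.91) and CD68 (-0.49) were among the 9 lower members. The proton pump had 11 of 20 genes higher by small amounts (median 0.22), with ATP6AP1 at 0.73 and 1 lower, ATP6V0E2 (-0.82). Autophagy genes were mixed, 19 of 49 higher and 10 lower, with the cargo receptor SQSTM1 at 1.15 and GABARAPL1, which coats autophagosomes, at 1.22.

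**Figure D3:**
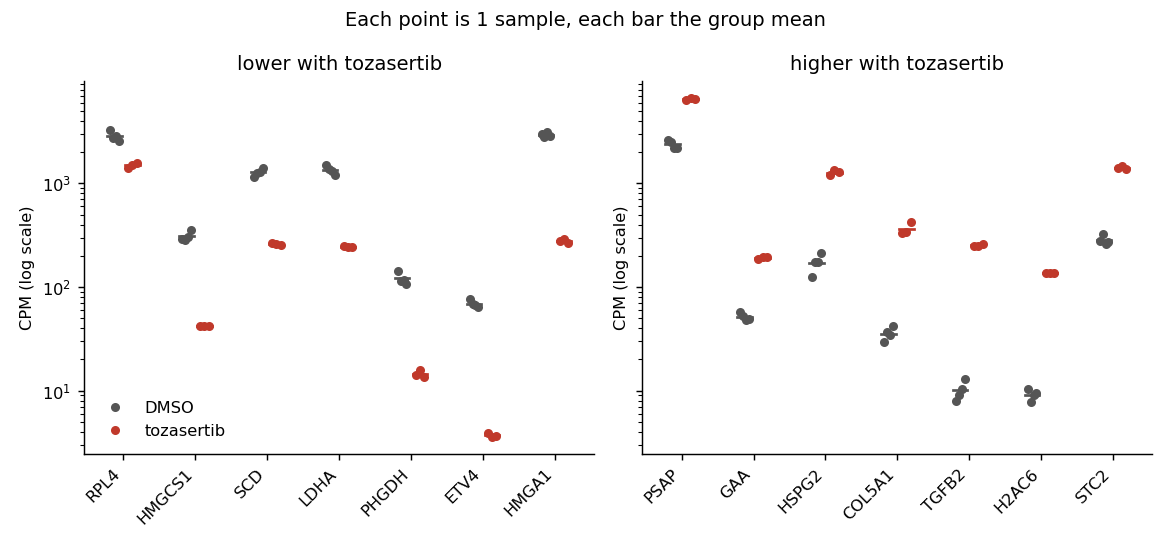
CPM of 14 genes on a log axis, with 1 point per sample and a bar at the group mean for DMSO (grey, n = 4) and tozasertib (red, n = 3). The 7 genes of the left panel are lower and the 7 of the right panel higher in every tozasertib sample than in any DMSO sample.

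Most collagens and matrix glycoproteins rose. Of 31 tested collagens 19 rose and 4 fell (median 1.22), and of 58 matrix glycoproteins 37 rose and 7 fell (0.86). With counts scaled for transcript length these medians were 0.83 and 0.54, and with only the samples of these 2 groups in the fit, which changes the genes tested, the median of the collagens was 0.7. COL5A1, a fibril-regulating collagen, had 29.2, 36.8, 34.5 and 41.9 CPM with DMSO and 329, 339 and 421 CPM with tozasertib. HSPG2, the basement membrane proteoglycan perlecan, had 125, 174, 176 and 214 CPM with DMSO and 1199, 1332 and 1284 CPM with tozasertib. Both stood several-fold above the highest DMSO sample in each tozasertib sample (COL5A1 3.35 ± 0.126, HSPG2 2.88 ± 0.139, edgeR adjusted p = 2.5e-10 and 1.8e-09). MEGF6, a secreted protein with EGF repeats, changed by 6.35, CRISPLD2 by 4.54 and matrilin MATN2 by 3.56. COL9A3 (-1.79), COL12A1 (-0.76), COL22A1 (-0.54) and COL13A1 (-0.42) were the collagens that fell.

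Many enzymes around the matrix rose as well. Collagen folding and cross-linking had 19 of 28 higher and 7 lower, with the propeptide proteases TLL2 (4.29), ADAMTS14 (3.92), ADAMTS2 (2.26) and BMP1 (1.22) all up. Among proteoglycan and hyaluronan genes 25 of 44 rose, including SULF2 (5.18), which removes sulfates from heparan sulfate and so alters growth factor binding, and biglycan BGN (3.98). Matrix proteases and inhibitors had 27 of 52 higher and 15 lower. By gene family, the ADAMTS proteases had 11 of 15 higher and 2 lower, the MMP family 7 of 12 higher and 1 lower, and the CDH cadherins 8 of 12 higher and 1 lower. Of 7 tested fibroblast markers 4 rose and 2 fell. All 11 listed markers summed to 52.8 to 60.6 CPM with DMSO and 137 to 142 CPM with tozasertib. LUM, which the matrix lists also hold, was at 23.1 ± 1.5 and 102 ± 2.8 CPM, and COL1A1 at 3.64 and 18.8 CPM. The means of TWIST2 (25.5 and 16.3 CPM) and PDGFRB (3.0 and 1.44 CPM) were lower with tozasertib. COL3A1, DCN and THY1 had 10, 17 and 7 reads over all 7 samples. The part of fibroblast-like cells in the matrix values was not tested.

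In most lists of adhesion and neural genes more members rose than fell. Cadherins and protocadherins had 31 of 54 higher and 8 lower, including CDH10 (3.4) and CDH13 (1.4), and 12 of the 15 clustered PCDHB genes were higher and none lower. PCDHB genes are similar in sequence and may share reads. Integrins were divided, 14 higher and 14 lower of 39, with ITGA3 at 1.05 and ITGA5 at 1.01. Axon guidance genes had 32 of 71 higher and 17 lower, with 11 of the 18 semaphorins higher and 3 lower. TENM2, an adhesion protein of synapses, went from 0.717 ± 0.384 to 12.6 ± 3.06 CPM (4.12). Potassium and sodium channels had 21 of 40 higher and 8 lower, and synapse and vesicle genes 23 of 53 higher and 15 lower. Secretogranin SCG2, stored in neuroendocrine granules, was at 15.2 ± 0.952 CPM with DMSO and 104 ± 2.75 CPM with tozasertib (2.78), and the dopamine receptor DRD2 at 8.3 ± 0.872 and 77 ± 1.61 CPM (3.21).

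Lineage genes of melanocytes and of dedifferentiated melanoma went both ways. Of 26 melanocyte genes 13 rose and 7 fell, and 8 rose with length-scaled counts. The lineage factors moved little, MITF by 0.27 and SOX10 by -0.44. The call of MITF was lost in 6 of the 7 fits that left out 1 sample, all but that without DMSO replicate 4 (edgeR adjusted p = 0.0657 to 0.122). It was also lost without a filter on low counts (edgeR adjusted p = 0.142), with only the samples of the 2 groups (0.0638) and with length-scaled counts (0.0713). ABCB5, a transporter expressed in pigment cells, had 0.69, 1.17, 0.777 and 0.572 CPM with DMSO and 39.7, 37.7 and 32.6 CPM with tozasertib, and was above every DMSO sample in each tozasertib sample (5.51 ± 0.154, edgeR adjusted p = 2.35e-11). NGFR, the nerve growth factor receptor of neural crest-like melanoma cells, had 499.7, 468, 500.5 and 514 CPM with DMSO and 1294, 1351 and 1444 CPM with tozasertib. It was also without overlap (1.46 ± 0.0564, edgeR adjusted p = 2.89e-10). The dedifferentiated and neural crest list had 23 of 49 higher and 19 lower, with S100A2 at -2.72.

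Targets and feedback genes of ERK signalling were mostly lower. Of 49 tested 31 fell and 11 rose (median -0.52). ETV4, a transcription factor made in response to growth factor signalling, had 76.4, 69.3, 66.5 and 64.5 CPM with DMSO and 3.89, 3.6 and 3.66 CPM with tozasertib. The tozasertib values were all below 4 CPM, far from the lowest DMSO value (-4.21 ± 0.0848, edgeR adjusted p = 3.06e-12). Its relative ETV5 changed by -2.05. Among the 11 higher were FOSL2 (1.58) and CCND1, cyclin D1 (0.93). MYC changed by -0.63, with overlapping groups and no call without tozasertib replicate 1 (edgeR adjusted p = 0.0534).

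Ligands of growth and patterning pathways had large single changes. TGFB2, a ligand of the TGF-beta receptors, had 7.97, 9.04, 10.4 and 12.9 CPM with DMSO and 247, 251 and 261 CPM with tozasertib. Each tozasertib sample stood far above the highest DMSO sample (4.65 ± 0.126, edgeR adjusted p = 2.06e-11), and the transcript TGFB2-OT1, which overlaps it, was at 3.84, so their reads may not be fully separable. Over the TGF-beta and BMP list 24 of 56 rose and 10 fell. In the WNT list 26 of 52 rose and 12 fell. The secreted antagonists DKK1 (1.99) and DKK3 (1.68) were up, and the ligand WNT7B (-4.86) and the receptor FZD8 (-2.76) down. YAP and TEAD targets had 21 of 43 higher and 11 lower, with ANKRD1 at 3.09 and NUAK2 at 3.56. In the insulin and PI3K list 24 of 59 rose and 16 fell, with the lipid phosphatase INPP5D at 3.64.

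Immune genes outside the interferon list were partly higher. For antigen presentation, 17 of 21 class I genes rose and 1, PDIA3, fell (-0.22), with HLA-B at 1.49 and the peptide transporter TAP1 at 1.3. Of 15 class II genes 11 rose and none fell (median 0.34), with HLA-DQA1 at 1.36 and CTSS, the protease of peptide loading, at 0.94. Without DMSO replicate 4, 9 class II genes rose and 1 fell (median 0.28). HLA genes are polymorphic and similar to each other, so reads may be misassigned. Complement genes had 13 of 19 higher and 1 lower (median 0.69). The lower gene was clusterin, CLU (-0.62), and C1S, a protease that starts the classical cascade, was at 0.828 ± 0.154 CPM with DMSO and 18.3 ± 1.92 CPM with tozasertib (4.46). Among ligands seen by T and NK cells 14 of 25 rose and 3 fell, with the death ligand TNFSF10 at 3.55, PDCD1LG2 (PD-L2) at 1.51 and CD58, a T cell adhesion ligand, at -1.05. Immune cell markers did not rise with these genes, summing to 56.6 to 68.9 CPM with DMSO and 43.8 to 48.7 CPM with tozasertib, almost all from CD68, with MS4A1 and NKG7 without a read.

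The secreted factors of senescence were divided. Of 44 cytokines and growth factors 21 rose and 15 fell. IL6 had 0.966, 1.6, 1.27 and 1.01 CPM with DMSO and 8.0, 9.68 and 8.05 CPM with tozasertib, all tozasertib values above all DMSO values (2.82 ± 0.198, edgeR adjusted p = 6.11e-08). The chemokine CXCL10 had no read in any DMSO sample and 1.59, 1.36 and 1.33 CPM with tozasertib, at least 57.9-fold higher when 3 reads are taken as the limit over the 4 DMSO samples. CXCL8 had 107, 179, 151 and 129 CPM with DMSO and 83.6, 115 and 98.4 CPM with tozasertib. The groups overlapped for CXCL8, and its lower level passed the test by a small margin (-0.52 ± 0.175, edgeR adjusted p = 0.0219). The call was lost without tozasertib replicate 1 (edgeR adjusted p = 0.102) or 4 (0.056) or DMSO replicate 2 (0.0672). It was also lost with library size alone (edgeR adjusted p = 0.0551) and with length-scaled counts (0.0537). Feedback genes of NF-kB had 12 of 26 higher and 8 lower, with CFLAR at 0.95 and SOD2 at 1.48. Of 21 inflammasome and caspase genes 12 rose and 5 fell, with CASP1 at 1.88 and CASP10 at 2.2, both caspases of inflammation or death receptors, and GSDME at -0.60. In the list of BCL2 proteins and death receptors 17 of 33 rose and 8 fell, with the survival gene BCL2L1 at 0.95 and the death-promoting HRK at 2.8.

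Redox and iron genes, which the study's wider work on ferroptosis turns to, were mixed. GPX4, the enzyme that reduces lipid peroxides, had 177, 122, 124 and 108 CPM with DMSO and 133, 141 and 147 CPM with tozasertib. The tozasertib values lay inside the DMSO range, set by DMSO replicate 1 at the top (0.08 ± 0.128, edgeR adjusted p = 0.602). Without DMSO replicate 1 GPX4 was called higher, at 0.25 (edgeR adjusted p = 0.00488). In the list of ferroptosis defence and selenium 24 of 43 fell and 7 rose (median -0.26), with the selenium receptor LRP8 at -2.35, CISD2 at -1.11 and the repair protein FANCD2 at -2.12. The cystine transporter SLC7A11 was at 47.7 ± 10.1 and 56.6 ± 7.78 CPM and did not pass the test (0.25, edgeR adjusted p = 0.185, and 0.39 with 0.0307 without DMSO replicate 4). NRF2 and glutathione genes had 20 of 53 higher and 16 lower. For iron, ferritin light chain FTL changed by 0.69, and heavy chain FTH1 (0.17, edgeR adjusted p = 0.227) and the transferrin receptor TFRC (-0.24, 0.137) did not pass the test. Without DMSO replicate 1 both were called, FTH1 at 0.29 (edgeR adjusted p = 0.0082) and TFRC at -0.33 (0.0283). FTH1 was also called with library size alone (edgeR adjusted p = 0.0336) and TFRC without a filter on low counts (0.0169). Genes of the integrated stress response were split, 12 of 36 higher against 16 lower, with ATF3 at 2.24 and SESN2 at 1.31. The unfolded protein response had 12 of 44 higher and 19 lower, with DNAJB9 at 0.86 and XBP1 at -1.08.

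Gene classes differed in direction. Of 13539 protein-coding genes 3988 rose and 4630 fell, and of 2897 long non-coding RNA genes 964 rose (33.3%) and 286 fell (9.87%), with a median of 0.38 against -0.04 for protein-coding genes. Under scaling by library size alone the balance of protein-coding genes turned, with 4664 higher and 3912 lower and a median of 0.05, while long non-coding RNA genes had 1079 higher and 245 lower. PINCR and MIR34AHG, p53-induced transcripts, changed by 2.74 and 2.55, and LINC02574 had no read in the DMSO samples and 383 reads with tozasertib, at least 123-fold higher. SLCO4A1-AS1 (-5.59) and the anion transporter gene SLCO4A1 (-3.71) on its opposite strand fell together, and reads of such a pair are separable only if the counting used strand, which is not given in the sources used here. The zinc finger genes named ZNF, mostly repressors that bind DNA, were a class apart on chromosome 19, where they lie in clusters. There 121 of 223 rose (54.3%) and 20 fell (8.97%), with a median of 0.37. On other chromosomes 73 of 232 ZNF genes rose (31.5%) and 29 fell (12.5%), and of the other protein-coding genes of chromosome 19, 199 of 763 rose and 292 fell. Many ZNF genes are similar in sequence, so reads may be divided between them. Transcript length moved with direction too: of the 3385 shortest protein-coding genes 637 rose and 1511 fell, and of the 3385 longest 1268 rose and 819 fell. The summed level of the shortest set was 261213 to 370143 CPM with DMSO and 235988 to 238877 CPM with tozasertib, and of the 3385 protein-coding genes of lowest mean level 1271 rose and 586 fell (median 0.32). The part of length and of expression level in the class values was not tested.

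**Figure D4:**
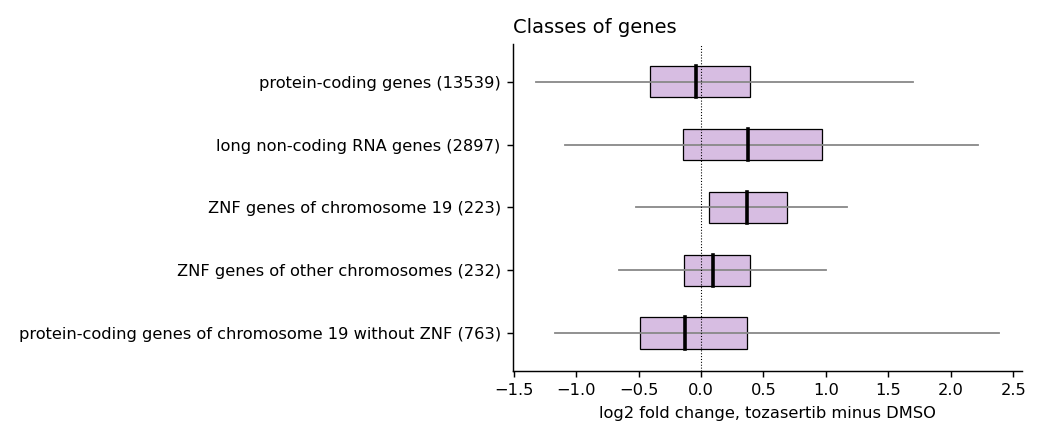
Log2 fold changes of tozasertib against DMSO by class of gene, with the number of genes in brackets; boxes run from the lower to the upper quartile, the black line is the median and the grey line runs from the 5th to the 95th percentile. Long non-coding RNA genes (median 0.38) and ZNF genes of chromosome 19 (0.37) lie to the right of protein-coding genes (-0.04, and 0.05 with library size alone).

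A few genes were close to absent in 1 group. With at most 3 reads over a group and at least 1 CPM in each sample of the other taken as the rule, 12 genes were near absent with DMSO and 2 with tozasertib. The skin protease KLK5 and the fast muscle troponin TNNT3 had no read in any DMSO sample and were at least 69.7-fold and 55.7-fold higher. LSP1, an actin-binding protein of leukocytes, was at 1.54, 1.54 and 1.3 CPM in the tozasertib samples, and the atypical chemokine receptor ACKR3 at 2.03, 2.03 and 2.87 CPM. The 2 near absent with tozasertib were CA9, described above, and the long non-coding RNA ENSG00000260918, with 400 reads in DMSO and none with tozasertib, at least 139-fold lower. Such levels are low in absolute terms, and counting intervals cover only the counting error of the group near absent.

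Other genes stood at the extremes. CLCA2, a p53-induced adhesion protein of epithelia, had 1.1, 0.78, 1.09 and 0.706 CPM with DMSO and 57.8, 58.4 and 75.8 CPM with tozasertib (6.11 ± 0.153, edgeR adjusted p = 1.39e-11). CYP4F3, which inactivates leukotriene B4, had 0.724, 0.674, 0.84 and 0.471 and 19.9, 18.8 and 19.98 CPM, and its near copy CYP4F2 changed by 4.37. The tight junction protein CLDN1 (4.61), the peptide transporter SLC15A3 (4.68) and GASK1B (5.35) were among the 20 highest. At the low end were DMBT1, a mucosal scavenger protein (-4.24), the postsynaptic NRGN (-3.39), the brain fatty acid-binding protein FABP7 (-3.27), the DNA deaminase APOBEC3B (-3.27) and TMSB15A (-3.53). In each of these genes all tozasertib samples were on 1 side of all DMSO samples, as the naming rule required.

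Tozasertib was set against etoposide to see which changes differed between the drugs. Here 966 genes were higher with tozasertib (5.67%) and 929 lower (5.45%), far fewer than against DMSO. The higher share was 51.0% of these calls and 40.0% in DESeq2. In edgeR it was 43.0% with DESeq2 size factors and 58.5% with library size alone, so the balance of directions moved with the scaling. Without tozasertib replicate 1 there were 565 higher and 471 lower, without tozasertib replicate 2 there were 591 and 484, and without etoposide replicate 3 the lower genes numbered 589. Of the 5097 genes higher than DMSO, 617 were also higher than etoposide, 272 were lower than etoposide and 4208 were not called. Of the 5008 genes lower than DMSO, 519 were also lower than etoposide, 171 were higher and 4318 were not called. Both comparisons use the same tozasertib samples and are given side by side only.

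Whole lists differed between the drugs. With tozasertib 50 of 50 interferon-induced genes were higher than with etoposide (median 1.94), and 16 of 21 class I genes (0.61). None was lower in these lists. Of mitosis genes 64 of 74 were lower (-0.74), and of DNA replication genes 43 of 71 (-0.48), with none higher. Calls were fewer elsewhere, 1 higher and 3 lower of 28 cholesterol genes, and 4 and 5 of 48 glycolysis and hypoxia genes. For 65 lysosomal genes they were 8 and 2. All are to be read against 5.67% higher and 5.45% lower over all genes. A gene not called may still differ. The ERK output genes had 16 higher and 2 lower with tozasertib of 49, and the secreted factors 20 higher and 4 lower of 44. ETV4 was at 2.4 ± 0.0933 CPM with etoposide, below its tozasertib level (0.64, edgeR adjusted p = 0.000621), and IL6 at 4.6 ± 1.01 CPM (0.90, adjusted p = 0.00531). CXCL8, at 37.6 ± 6.92 CPM with etoposide, was 1.39 higher with tozasertib on the log2 scale (edgeR adjusted p = 0.000198). SLC7A11, at 19.2 ± 2.65 CPM, was 1.56 higher (adjusted p = 2.63e-05). Ribosomal proteins had 26 of 79 lower with tozasertib and none higher (median -0.37).

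Some single genes also differed widely between the drugs. CRYAB was at 0.664 ± 0.34 CPM with etoposide, 3.89 below its tozasertib level on the log2 scale (edgeR adjusted p = 9.33e-06), CYP4F3 at 1.13 ± 0.489 CPM (4.11, 1.63e-07) and CLCA2 at 8.86 ± 0.749 CPM (2.85, 2.63e-08). In collagen folding and cross-linking 9 of 28 genes were lower with tozasertib than with etoposide and none higher. COL5A1 was at 558 ± 57.4 CPM with etoposide (-0.62, edgeR adjusted p = 0.00484), TENM2 at 41.3 ± 12.1 CPM (-1.71, 0.000704) and DRD2 at 122 ± 8.11 CPM (-0.67, 7.88e-05), with means above those of tozasertib. HMGCS1 (42.1 ± 0.538 CPM with etoposide, 0.00, edgeR adjusted p = 0.985) and GAA (182 ± 11.4 CPM, 0.08, 0.506) did not pass the test between the drugs.

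**Figure D5:**
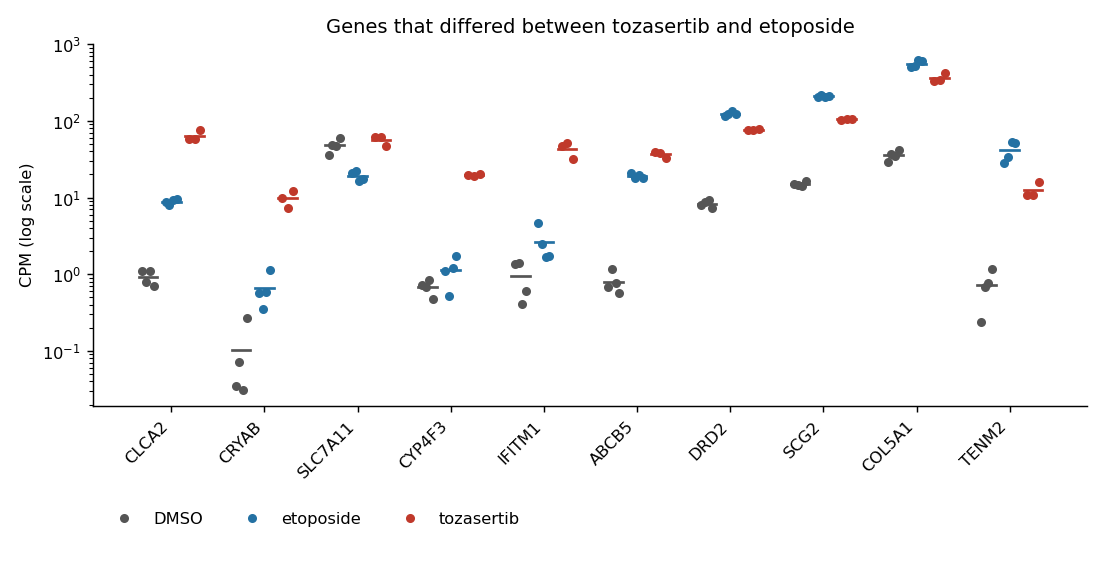
CPM of 10 genes on a log axis, with 1 point per sample and a bar at the group mean for DMSO (grey, n = 4), etoposide (blue, n = 4) and tozasertib (red, n = 3). The 6 genes on the left, from CLCA2 to ABCB5, were higher with tozasertib than with etoposide, and the 4 on the right, from DRD2 to TENM2, were lower.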

How the data were processed

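Poly(A) RNA of SK-MEL-103 cells was sequenced by the authors from strand-specific libraries. According to the submitters' notes the reads were trimmed or quantified with tools that include Salmon 1.9.0 and cutadapt 4.7, on GRCh38, and R 4.4.2 with DESeq2 1.40.2 was used; the study's methods name another aligner, while the deposited tables have the columns of Salmon. The authors deposited 1 table per sample with estimated counts, which are not normalized, and TPM per transcript, together with effective lengths, used for the length-scaled alternative.

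The estimated counts were summed to 61566 genes by transcript identifier with the GENCODE annotation of GRCh38 (99.8% of transcripts matched; unmatched ones held 0.136% to 0.163% of the reads) and rounded. Genes kept by filterByExpr were tested with edgeR 4.0.16 in R 4.3.3 (quasi-likelihood, two-sided, TMM scaling, all 11 samples, 1 mean per group), with Benjamini-Hochberg adjustment and a threshold of 0.05. Levels are CPM as mean ± SD. Standard errors were computed from each log2 change and its F value. Alternatives were DESeq2 1.42.0, other scalings and filters, length-scaled counts, a replicate block and leaving out each sample.

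The 95 gene lists and the genes named were chosen with earlier results of these data known. Named genes are the 20 highest and 20 lowest protein-coding and 8 and 8 long non-coding RNA genes outside the 4 lists of interferon, mitosis, replication and p53 (called, at least 5 CPM in a group, no overlap), per list the 4 members or fewer with the lowest adjusted p, up to 5 members against a list's direction, the largest gains and losses of CPM, genes near absent in a group, and genes central to the study; some of these are not reported here. Exact counting intervals are 95% Poisson limits on the reads of the group near absent, with the reads of the other group taken as fixed. Promoters are from RefSeq, with exact motif matches on both strands. The pipeline was tested on simulated data.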

Additional observations from a re-analysis of the deposited data

Results flagged for a closer look

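Dixon's rule at the 95% level was applied to the 4 DMSO values of 211 genes named in the text and was passed by 10 of them, and chance alone passes about 1 in 20. The 3 tozasertib samples are too few for the rule. DMSO replicate 1 was the sample apart in 6 genes. It was high for MIA (145 CPM, against 76.2 to 83 CPM in the other DMSO samples), S100A2 (296 against 160 to 177 CPM) and H2AZ2 (183 against 166 to 169 CPM), and low for APAF1 (26.8 against 31.7 to 32.5 CPM) and UBN2 (8.9 against 14.1 to 14.8 CPM). LSP1 had 0.069 CPM in it and 0 in the other DMSO samples, which is 2 reads.

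DMSO replicate 2 was high for EZH2 (36.6 against 34.0 to 34.2 CPM) and PMAIP1 (180.2 against 154 to 157 CPM). DMSO replicate 4 was low for MMP2 (836 against 854 to 858 CPM) and high for CRYAB (0.269 against 0.0311 to 0.0709 CPM). In all 10 of these genes the tozasertib samples lay outside the whole DMSO range, a separation that the rules for naming genes favoured.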

How the results depend on the processing

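Against DMSO, the alternatives gave 4344 to 5908 higher and 4239 to 5103 lower genes, and fits without 1 sample gave 4341 to 5220 and 4467 to 5260. Library size alone gave the most uneven split (5908 higher, 4239 lower), 58.2% of calls higher in place of 50.4%. Against etoposide, higher and lower genes numbered 1785 and 1767 with only the samples of the 2 groups, 599 and 519 with length-scaled counts, and DESeq2 gave 1551 lower, while fits without 1 sample gave 565 to 1154 higher and 471 to 1032 lower. The cause was not tested. Of 215 genes named and tested, 192 kept direction and call in every alternative, 18 lost the call in at least 1, and 0 reversed. Low-count genes, such as those with 0 to 2 reads over the DMSO samples, limit the size of a change.

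The main fit did not pair samples by replicate number. The correlations of same-numbered deviations were -0.0973, 0.0151 and -0.00902 between DMSO and tozasertib, and 0.230, 0.0911 and 0.120 between etoposide and tozasertib. Differently numbered samples had -0.0831 to 0.0743 between DMSO and tozasertib. Between etoposide and tozasertib they had -0.207 to 0.161, most of them below 0. Whether same-numbered samples share an origin was not tested. With the replicate block there were 4920 higher and 4886 lower genes against DMSO, and 834 and 785 against etoposide.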
